A study of Caenorhabditis elegans with 4 samples.

Results

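Chromosome IV of Caenorhabditis elegans carried 297 of the 1310 regions in which RNA polymerase II (Pol II) was enriched in young adult worms. They were chosen by sequence name alone: every listed region on IV was taken, whatever its length or significance. Chromatin immunoprecipitation with sequencing (ChIP-seq) was done on hermaphrodites of the wild-type laboratory strain N2, grown at 20 °C and fixed with 2% formaldehyde, with no other treatment or genotype in the series. The 4 libraries were 2 replicates of Pol II ChIP DNA, taken with the mouse monoclonal antibody 8WG16, and 2 replicates of input DNA, the unselected chromatin used as control. The values came from 1 list that combined both replicates, so no value per library, no replicate error and no test between worm cultures could be given. Whole worms were used, so somatic and germline Pol II are summed in every value, and fewer cells of a type cannot be told apart from less Pol II per cell. The protocol text in the labels also names embryos and a GFP serum, in conflict with the stage and antibody given for each library.

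Pol II transcribes all protein-coding genes and many small RNA genes, and 8WG16 recognises the repeated C-terminal tail of its largest subunit. Chromosome IV is known as the main home of the piRNA genes of this worm. piRNAs are short RNAs of the germline that guide the Argonaute protein PRG-1 against transposons and other foreign sequence, and most of them are transcribed by Pol II from very small transcription units of their own, many of which lie in introns or between protein-coding genes in a pair of broad spans. In the RefSeq gene table (assembly WBcel235), 14714 of 15363 piRNA genes (95.8%) were on IV. The spans were taken here as positions 4500000 to 7000000 (the left span) and 13500000 to 17200000 (the right span) of genome build WS180. The gene table is not of that build, so the regions below carry positions and no gene names, and no sequence of WS180 was used here.

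The piRNA-rich spans held fewer Pol II regions per Mb than the rest of the chromosome. Together they held 68 of the 297 regions, or 22.9% (95% exact interval 18.2 to 28.1%), on 35.5% of the chromosome's length. That was 10.97 regions per Mb in the spans (95% Poisson interval 8.52 to 13.9) against 20.3 per Mb in the rest (17.8 to 23.1), a ratio of densities of 0.54. Regions lay in groups and are not replicates, so these intervals are too narrow. No test was made of this or of the other differences between groups of regions below.

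The low density was mainly that of the right span. It held 31 regions in 3.7 Mb, or 8.38 per Mb (95% Poisson interval 5.69 to 11.9), which was 0.41 times the density in the rest of IV. The left span held 37 regions in 2.5 Mb, or 14.8 per Mb (10.4 to 20.4), and this interval and that of the rest overlapped. Covered bases followed the same order, with 20.4 kb per Mb in the right span and 38.1 kb per Mb in the left span, against 46.9 kb per Mb in the rest.

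**Figure D1:**
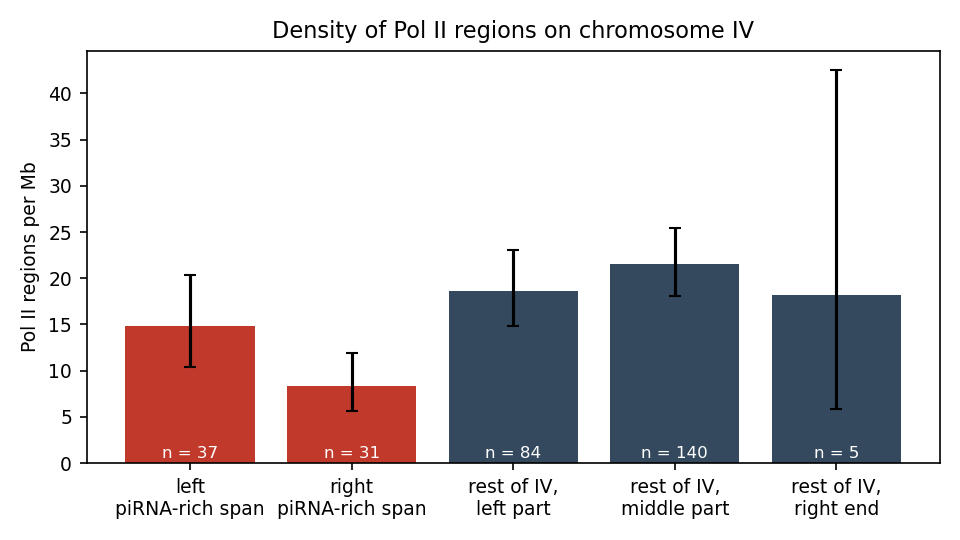
Pol II regions per Mb (y axis, from 0) in the left and right piRNA-rich spans (red) and in the 3 stretches of the rest of chromosome IV (dark blue). Bars are counts divided by length, error bars are 95% Poisson intervals for counting error only, and n is the number of regions. The right span, at 8.38 per Mb, lies under the middle part, at 21.5 per Mb, and their intervals do not overlap, whereas the right end, with 5 regions, has the widest interval.

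Stretches of matched size gave the same picture. The right span held 31 regions against 64 in the mirror position on the left arm of IV (17.3 per Mb, 95% Poisson interval 13.3 to 22.1) and 74 in the 3.7 Mb next to it on the left (20.0 per Mb, 15.7 to 25.1). The left span held 37 regions against 56 in its mirror position (22.4 per Mb, 16.9 to 29.1), 47 in the 2.5 Mb to its left and 59 in the 2.5 Mb to its right, and its interval overlapped all of theirs. Other chromosomes differed among themselves at the same fractions of their length. The fraction that corresponds to the right span (21.2% of the length) held 10.4% of regions on IV, against 7.95% on V, 13.3% on I, 16.8% on III, 22.6% on X and 24.4% on II. A sparse stretch near the right end was therefore not seen on IV alone, since V had a lower share there. The fraction of the left span (14.3% of the length) held 12.5% of regions on IV, against 13.0% on I and 17.6 to 18.8% on the others.

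The lower density towards the right began before the right span. In windows of 1 Mb, the fullest was 11 to 12 Mb, with 33 regions covering 73.1 kb. The next window, 12 to 13 Mb, held 6 regions, although it lies outside both spans. The emptiest full window was 16 to 17 Mb, with 5 regions, and 15 to 16 Mb held 6, both within the right span. The other windows given here were chosen after their counts were seen. Inside the left span, 5 to 6 Mb held 22 regions and 6 to 7 Mb held 10. The longest stretch of IV with no listed region ran for 622 kb between 12217548 and 12839792, again outside the spans. The next longest, 453 kb between 16493529 and 16946196, was inside the right span. The median gap between neighbouring regions was 78.5 kb in the right span and 31.8 kb in the left span, against 24.3 kb in the rest of IV. Gaps over 200 kb numbered 7 in the right span and 3 in the left span, against 5 in the rest.

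**Figure D2:**
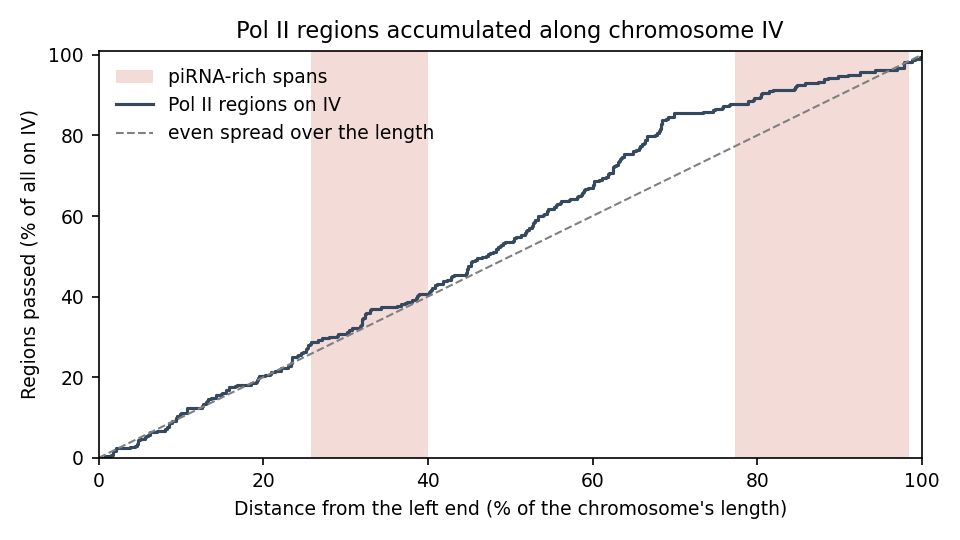
Share of the 297 regions on chromosome IV passed (y axis, %) against the distance from the left end (x axis, % of the length, taken as the end of the last region). The dark blue line is the regions, the dashed line an even spread, and the shaded bands the piRNA-rich spans. The line climbs above the dashed one in the middle part, goes flat before the right band, where the gap of 622 kb lies, and stays shallow through that band, which holds 31 regions.

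How strongly Pol II was enriched was read from tags (sequenced fragments). For 295 of the 297 regions the q-value gave back 1 pair of whole numbers, the ChIP tags and the control tags after scaling. These regions held 159939 ChIP tags and 57128 control tags before scaling, and the control factor on IV was 1.39. The median region on IV held 334 ChIP tags against 189 scaled control tags. The ratio of ChIP tags to the scaled control had a median of 1.87 on IV (quartiles 1.58 and 2.34), against 1.80 on the other 5 chromosomes (1.52 and 2.26). This order turned without the control factors, with a median unscaled ratio of 2.60 on IV against 2.97 elsewhere. The ratio exceeded 2 in 113 of the 295 regions on IV (38.3%), against 37.9% of all 1301 listed regions with tags, so the share on IV was near that background. Entry to the list itself was a call at q under 0.01. The q-values place 1339 of 14435 regions tested (9.28%) under it, counting 29 that rank above the list and are not in it.

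In the left span, ratios were lower and regions longer at the median, with 2313 bp in the left span (95% order-statistic interval 1522 to 3282 bp) against 1668 bp in the rest of IV (1442 to 1929 bp). The median ratio was 1.61 in the left span (37 regions, quartiles 1.52 and 2.00), against 1.89 in the rest of IV (228 regions, quartiles 1.60 and 2.37). The 95% order-statistic interval of the left span's median, 1.55 to 1.96, overlapped that of the rest, 1.81 to 1.97. Summed over regions, the ratio was 1.69 in the left span (18353 ChIP and 10831 scaled control tags), against 2.07 in the rest of IV. Such sums follow the regions with the most tags, so no interval is given for them. The ratio exceeded 2 in 10 of 37 regions in the left span (27.0%), against 92 of 228 in the rest (40.4%). In the right span the median ratio was 1.85, the summed ratio 2.01 and the share over 2 was 36.7% (11 of 30 regions). Each was below the rest of IV by less than in the left span. These values leave out the most significant region of IV, which lies in the right span and has no recovered tags. Whether the summed ratio of all regions in the right span was below the rest is therefore undecided. Both spans thus had fewer regions per Mb and lower median ratios than the rest of IV. The right span was further below it in density and the left span in median ratio, and the intervals of the medians overlapped the rest in both.

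Control coverage also varied along the chromosome. The median number of unscaled control tags per kb of region was 64.6 in the right span and 76.3 in the left span, against 70.7 in the left part, 83.4 in the middle part and 65.9 at the right end. ChIP tags per kb were 178 in the right span and 190.0 in the left span, against 181, 215 and 179 in those parts of the rest. Regions of both spans and of the ends thus held fewer tags of both kinds per kb than those of the middle part, and the part of this in the number of regions called was not tested.

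The most significant listed region of the chromosome lay within the right span all the same. Ranks here are ranks among listed regions, since the q-values place 29 regions above the list, and these are not analysed here. It ran from 16167266 to 16171722, spanned 4457 bp and had a q-value of 4.25e-299, rank 5 of the 1310 listed regions. Its p-value is implied to 1 digit only, so no tags and no ratio could be recovered. The next region of the right span, from 14032445 to 14035048, had a ratio of 2.72 (1507 ChIP and 554 scaled control tags, 95% exact interval 2.44 to 3.05). Its 579 ChIP tags per kb exceeded those of all of the 10 most significant regions of IV with tags, and its unscaled control was high as well, at 153 per kb. The third, from 14050694 to 14057133, held 1310 against 450 tags over 6440 bp, a ratio of 2.91 (2.58 to 3.30), with 203 ChIP tags per kb. The right span thus held few regions but some of the stronger ones, at ranks 1, 21 and 22 of the chromosome.

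The left span had no region among the first 27 of the chromosome. Its most significant one, from 5601159 to 5608982, ranked 28 and had a ratio of 1.96 over 7824 bp (1825 ChIP and 931 scaled control tags, 95% exact interval 1.79 to 2.15). The second, from 6424264 to 6427545, had 825 against 297 tags and a ratio of 2.78 (2.39 to 3.25). The third, from 5665251 to 5668570, had 824 against 360 tags and a ratio of 2.29 (1.99 to 2.65). The region on IV with the lowest ratio of all was close by, from 5650683 to 5657721, with a ratio of 1.23 (1352 ChIP and 1095 scaled control tags, 1.13 to 1.35). The next 4 lowest ratios on IV, from 1.24 to 1.28, included 1 more in the left span, from 6784201 to 6787697. The region with the ratio of 1.23 and the third most significant one belong to the same chain of 4 neighbours, so that ratios of 1.23 and 2.29 were found within 17888 bp.

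Outside the spans, the strongest regions lay on both sides of the left span and in the middle part. A pair on the left arm came first, from 2599589 to 2608625 (9037 bp) and from 2768065 to 2776304 (8240 bp). The first had a ratio of 3.28 (2838 ChIP and 866 scaled control tags, 95% exact interval 3.01 to 3.58). The second held 2545 against 725 tags, a ratio of 3.51 (3.20 to 3.87). Only 1 region of IV was longer than these, and its ratio was 1.43. A shorter region on the same arm, from 3644680 to 3649329, had the highest ratio of the first 10 with tags, 2175 against 544 tags or 3.998 (3.59 to 4.47). The region from 7046601 to 7054187, just right of the left span's border, held 2544 against 765 tags, a ratio of 3.33 (3.03 to 3.66).

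The remaining regions of the first 10 lay in the middle part. The one from 13077778 to 13083549, between the gap of 622 kb and the right span, had a ratio of 3.93 (1967 against 500 tags, 95% exact interval 3.52 to 4.42). The other 4 ran from 9438544 to 9442786, from 11080520 to 11084372, from 8430479 to 8433863 and from 10932847 to 10938046, with ratios from 2.84 to 3.54. They stood out by tag density, with 473 to 559 ChIP tags per kb, against 309 to 468 in the 5 others of the first 10 with tags. Their unscaled control was denser too, at 105 to 120.0 tags per kb against 62.4 to 84.3 in the 5 others, and their ratios overlapped those of the 5 others, which ran from 3.28 to 3.998.

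Regions on IV were shorter than on most chromosomes. The median length was 1738 bp on IV (quartiles 870 and 3318 bp), against 2161 bp on the other 5 chromosomes together (901 and 3963 bp), with 1277 bp on I below it and 2198 to 3155 bp on the other 4. The control factors of I and IV were also lower, at 1.36 and 1.39 against 1.74 to 1.83 on the other 4. The 154 regions of IV that passed with the factor of II had a median of 2513 bp, against 2434 bp on II. The part of the factor in these lengths was not tested. Regions over 5000 bp made up 11.4% of those on IV (34 of 297), against 15.3% elsewhere, with 10.2% on I and 15.0 to 22.6% on the other 4. The longest on IV, from 9989555 to 9999091, had a length of 9537 bp and a ratio of 1.43 (1988 ChIP and 1386 scaled control tags, 1.33 to 1.55), while other chromosomes reached 20010 bp. Of the 5 longest on IV, the pair on the left arm described above had ratios over 3, and the 2 others, from 5601159 to 5608982 and from 7390295 to 7398013, had 1.96 and 1.87.

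**Figure D3:**
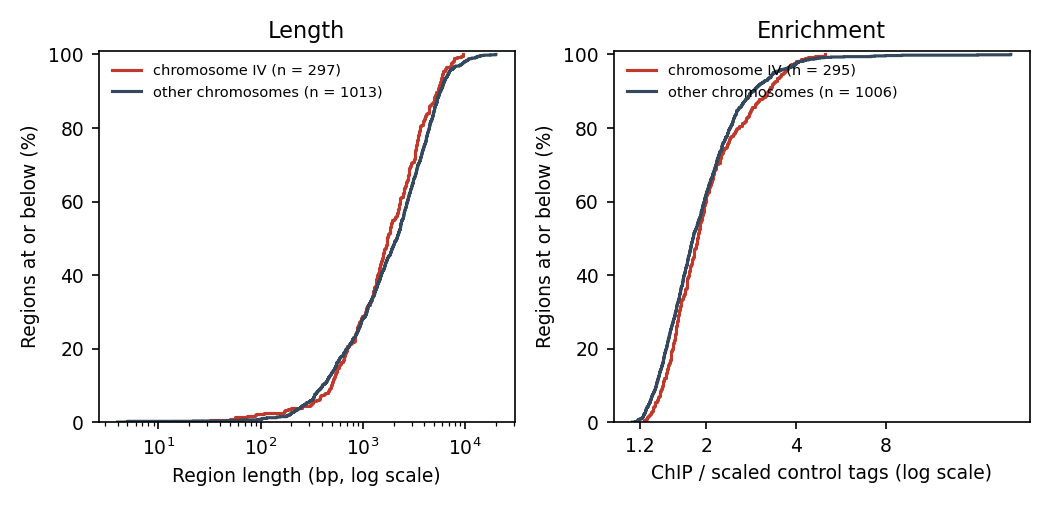
Cumulative distributions (y axis, % of regions at or below the value) of region length in bp (left panel) and of the ratio of ChIP to scaled control tags (right panel), both on log axes, for chromosome IV (red) and the other chromosomes (dark blue). The length curves separate above about 1000 bp, where IV lies to the left (medians 1738 and 2161 bp), while the ratio curves run close together (medians 1.87 and 1.80).

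At the other end, 11 regions on IV were under 200 bp (3.70%), against 24 on the other chromosomes (2.37%). Of these 24, 15 were on I (4.64% of its regions), and the share was 0.568 to 1.87% on II, III, V and X. The shortest ran from 4105663 to 4105676, 14 bp with a ratio of 4.40 (22 ChIP and 5 scaled control tags, 95% exact interval 1.59 to 27.6). A 32 bp region from 1498699 to 1498730 matched 12 ChIP tags with 0 control tags as well as 20 with 3, so its ratio is undecided. The next 3, of 50 to 73 bp, held 24 to 26 ChIP tags against 6 or 7. The highest ratios of the chromosome came from such short regions: 5 in 88 bp from 11340805 to 11340892 (35 against 7 tags, interval 1.97 to 16.5) and 4.63 in 90 bp from 11899959 to 11900048 (37 against 8 tags, interval 2.09 to 17.4). All regions under 200 bp on IV ranked at 949 or later in the list, and the other 3 of the 5 highest ratios, from 4.17 to 4.40, came from regions of 14 to 107 bp. The lower bounds of these 5 ratios lay between 1.56 and 2.09. High ratios resting on few tags were thus less certain than the 3.28 of the region with 2838 tags.

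Over the 295 regions with tags, longer regions tended to have lower ratios (Pearson's r = -0.32 and Spearman's rho = -0.19 between log10 length and log10 ratio). These coefficients describe regions that share libraries, scaling and a significance limit, and carry no test. The coefficient varied with the regions included: r was -0.10 over 285 regions without those under 200 bp, and -0.23 over the regions on IV among the 655 more significant of the list, which hold none under 200 bp. The median ratio was 4.08 under 200 bp, 2.33 from 200 to 500 bp, 1.86 from 500 to 1000 bp, 1.69 from 1000 to 2000 bp and 1.75 from 2000 to 5000 bp, and it was 2.05 above 5000 bp. The list's limit sets the lower edge, since few tags pass it only with a high ratio. The region just inside the limit, from 13412623 to 13413971, had a q-value of 0.00999 with 217 against 156 tags.

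**Figure D4:**
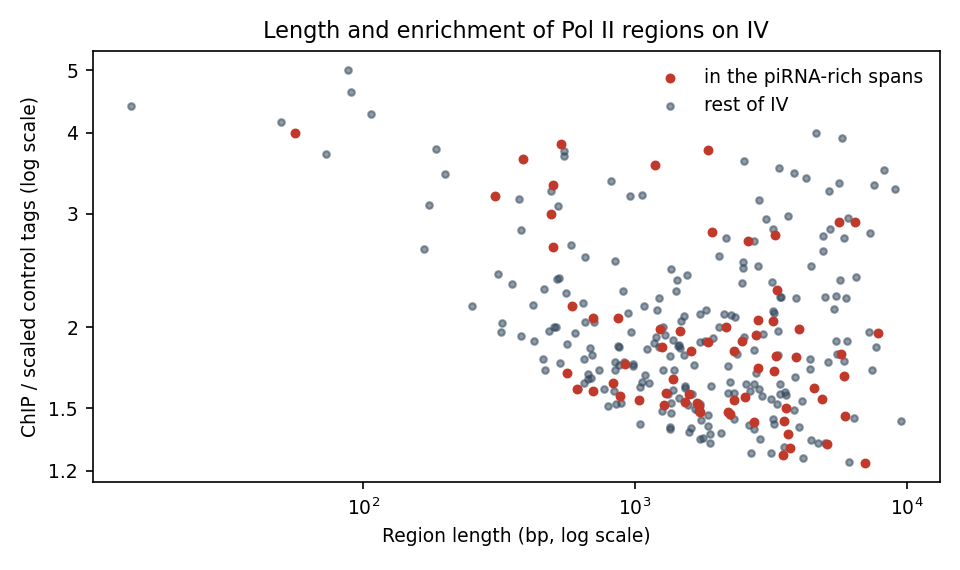
Region length in bp (x axis, log scale) against the ratio of ChIP to scaled control tags (y axis, log scale) for the 295 regions on chromosome IV with tags, in the piRNA-rich spans (red) and in the rest (dark blue). Short regions appear only at high ratios, the lower edge falls as length grows, and the regions of the spans lie throughout the cloud.

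Neighbouring regions on IV were common but seldom formed long chains. Another region's midpoint lay within 5000 bp of 108 of the 297 regions (36.4%), against 37.5% on the other chromosomes together. That share was 50.8% on I and 21.8 to 34.1% on II, III, V and X, so IV lay between. The share was 25.8% in the right span (8 of 31) and 35.1% in the left span (13 of 37), against 38.0% in the rest of IV. Joining regions with gaps of at most 5000 bp gave 58 chains that held 144 regions, and 39 of these chains were pairs. The largest, from 10501003 to 10513647, held 5 regions in 12645 bp with ratios from 1.42 to 2.57. Chains of 4 regions numbered 7. The 2 with the most ChIP tags were the one in the left span named above, from 5650683 to 5668570, and one in the middle part from 9196366 to 9219257, with ratios from 1.33 to 1.81. Neighbours were never closer than 202 bp.

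The number of regions on IV was also taken with a larger control factor. IV had 17.0 regions per Mb (95% Poisson interval 15.1 to 19.0), against 12.3 on the other chromosomes together. Per 1000 protein-coding genes of the RefSeq table it had 90.5 regions, against 60.7 elsewhere. IV was not the densest: I had 21.5 per Mb and 112 per 1000 genes. III, at 15.5 per Mb, had an interval that overlapped that of IV, and II, V and X had 7.03 to 11.6 per Mb. Covered bases were 43.4 kb per Mb on I and 44.0 on III, against 40.0 on IV. The control factor was 1.39 on IV and 1.36 on I but between 1.74 and 1.83 on the other 4, and a low factor lowers the control that ChIP has to exceed. With the factor of II, 1.83, on every chromosome, 154 of the 297 regions on IV (51.9%) passed the p-value limit of the list, against 78.3% elsewhere. Only listed regions were scaled again and none could enter, so II kept 100% by construction and low factors lost most. This trial therefore cannot show how dense IV would be if all regions had been called with 1 factor. The part of the factor in the number of regions on IV was not tested. I kept 46.7%, and III, V and X kept 87.4 to 98.4%. The density became 8.81 per Mb on IV against 9.61 on the others together. The 143 regions that dropped out had a median ratio of 1.58 and a median length of 1356 bp, while the 154 kept had 2.22 and 2513 bp. The right span stayed sparse with that factor: 17 of its 31 regions were kept, or 4.59 per Mb, 0.44 times the 10.6 per Mb of the rest of IV (0.41 before). In the left span 18 of 37 were kept, 7.20 per Mb or 0.68 times the rest (0.73 before). The window from 6 to 7 Mb, in the left span, kept 2 of 10 regions.

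**Figure D5:**
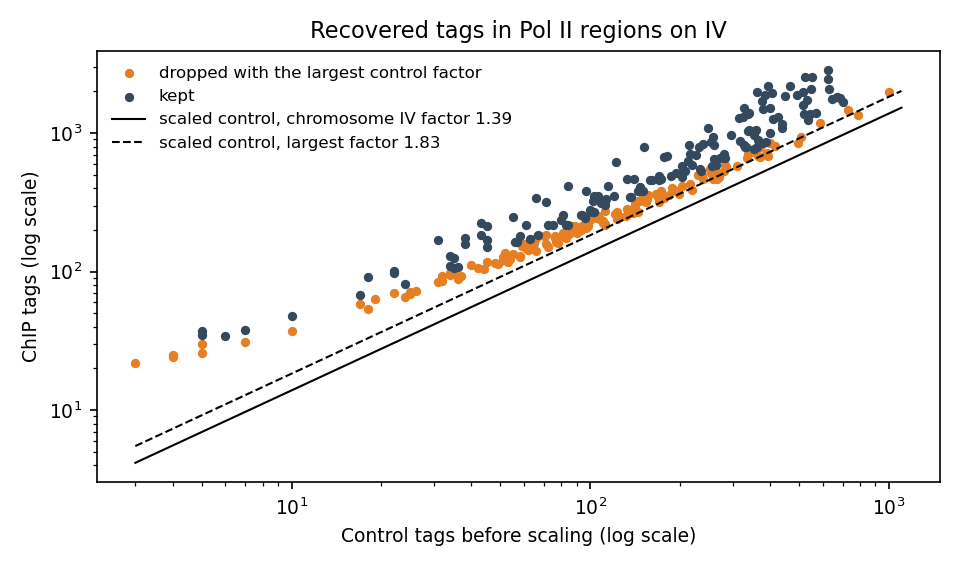
Control tags before scaling (x axis, log scale) against ChIP tags (y axis, log scale) for the 295 regions on chromosome IV with tags. Lines mark the control after scaling with the factor of IV, 1.39 (solid), and with the largest factor, 1.83 (dashed), and orange points are regions that drop out with the larger factor. The 143 dropped regions line the lower edge of the cloud at all tag numbers.

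Regions on IV were found at all levels of significance. In 5 equal parts of the list, from most to least significant, IV supplied 19.8%, 21.0%, 24.4%, 25.2% and 22.9% of regions, against 22.7% overall. The spans supplied 10, 16, 14, 18 and 10 regions to these parts. The share of IV regions in the spans was 24.6% among the 655 more significant regions of the list, close to the 22.9% of all.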

How the data were processed

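The deposited list gave a chromosome, a first and last base and a q-value for each region; regions were called with PeakSeq on WormBase WS180, per the file headers and columns. How reads were aligned and filtered and replicates joined is not given in the sources used here, and total depth is unknown. Members, spans, gene classes and comparisons were chosen with earlier results of these data known. Chromosome lengths were taken as the end of the last region.

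Tags were recovered from the deposited q-values. Each q was read as p times 14435 tests over its rank, counted from 30 in file order, with p an upper binomial tail at odds of 0.5. In 1301 of 1310 regions (99.3%) a single pair of whole numbers matched to within 1e-10 of p. The 29 higher-ranked regions are not analysed here. Reading the larger number as ChIP tags follows the published PeakSeq procedure. On IV, 98.3% of control values were whole numbers times 1.39, rounded up. The factor was fitted to these same values and many whole numbers match by chance, so this share is no separate check of it. The recovery code was run on simulated lists made under the same assumptions. Such a run checks the code only. It cannot show that the deposited q-values arose in this way, or which number is ChIP. Regions without tags stayed in when a larger factor was tried. Midpoints assigned regions to spans. Regions were named by rule: on IV the 10 lowest q-values, 5 longest, 5 shortest, 5 highest and 5 lowest ratios, 3 lowest q-values in each span, 2 largest gaps, fullest and emptiest windows of 1 Mb, and 3 chains with the most regions, ties going to more ChIP tags. Intervals are 95%: Poisson for densities, Clopper-Pearson for shares and ratios, order statistics for medians. They cover counting error only, since PCR copies are not independent molecules. Calculations used SciPy 1.17.1 and NumPy 2.4.6 under Python 3.11.15, tables pandas 2.3.3, and plots matplotlib 3.10.9.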

Additional observations from a re-analysis of the deposited data

How the results depend on the processing

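No test was made, so an alternative counts as moved when it left the 95% interval of the value as reported. By the labels given, 35 of 50 did. These include covered kb per Mb, which is in another unit than the interval of regions per Mb. The correlation has no such interval, so its labels do not rest on one. Among listed regions that passed with the largest control factor, IV had 8.81 per Mb against 9.61 on the other chromosomes together. No region could enter, so chromosomes with a low factor lost most by construction, and this order is no comparison of densities at 1 factor. The share of IV regions in the piRNA-rich spans stayed below their share of length throughout: 18.9 to 24.6% under 6 alternatives, and 30.0% on 41.2% of the length with the spans widened by 0.25 Mb on each side. Regions per Mb of IV were 7.90 among the 655 more significant regions, 12.1 after merging regions within 5000 bp and 8.81 with the largest control factor, and 40.0 kb per Mb were covered. In the same 3 settings the left span had 7.20, 10.4 and 7.20 per Mb, the right span 4.32, 6.49 and 4.59, and the rest of IV 9.22, 14.3 and 10.6. Median lengths were 3198, 2851 and 2513 bp. The median ratio was 2.10 among the more significant regions, 1.68 with the largest factor and 2.60 with unscaled control, with 2.00, 1.54 and 2.24 in the left span against 2.13, 1.69 and 2.64 in the rest of IV. Ratios over 2 made up 57.7, 32.2 and 88.8% in those settings. The share with a neighbour was 17.4% among the more significant regions, 26.6% with the largest factor, 14.5% within 2000 bp, 54.2% within 10000 bp and 48.5% by gaps. The correlation of length and ratio was -0.10 without regions under 200 bp, -0.15 after merging and -0.23 among the more significant regions. Fewer regions lower the counts by construction, and covered kb cannot be set against counts. For the other shifts the cause was not tested. The alternatives for single spans, ratios over 2 and the correlation, and the matched stretches, were chosen after seeing the data. Depth limits short regions, whose ratios rest on few tags. No paired analysis was possible because both replicates were joined in 1 list, which also kept any replicate from being left out.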
